A study of Mus musculus with 6 samples.

Results

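Most of the HES and HEY Notch effectors are genes through which the Notch pathway acts on transcription in neural stem cells (NSCs). They are listed here with a feedback inhibitor and with the DNA-binding factor of the pathway. The 8 genes were chosen by name, with earlier results of these data known: *Hes1*, *Hes5*, *Hes6*, *Hey1*, *Hey2*, *Heyl*, *Nrarp* and *Rbpj*. All 8 were among the 32493 genes of the count table, and all 8 were among the 16710 genes that had enough counts to be tested.

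When a Notch receptor meets its ligand on a neighbouring cell, its intracellular domain is cut free by γ-secretase, enters the nucleus and joins RBPJ on DNA, where it turns a repressed gene into an active one. The best known targets are HES and HEY genes such as *Hes1* and *Hes5*, which encode basic helix-loop-helix (bHLH) proteins. These repress proneural genes such as *Neurog2* and so keep cortical progenitors undifferentiated. HES1 and HES5 are the main effectors in the embryonic cortex, HES6 counteracts HES1, and NRARP binds the active Notch complex and dampens it.

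RNA-seq compared NSCs of miR-151 conditional knockout (cko) and control (ctrl) mouse embryos on a C57BL/6J background. The cko embryos were miR-151 fl/fl and carried Emx1-IRES-Cre, a driver of Cre in the dorsal telencephalon. The ctrl embryos were miR-151 fl/fl without Cre, a genotype that the sample labels call wild type. At E14.5 tissue of the lateral ventricles was taken, so cells in which *Emx1* was never active keep the miRNA, and NSCs were grown from it for 3 generations in medium with B27, to which the study's methods add EGF and bFGF. The labels do not say whether the libraries came from separate animals or cultures, so p-values measure the spread between these libraries, which may be technical.

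The 3 cko libraries were compared with ctrl libraries 1 and 3, with 17883796 to 23335736 counts each. The column labelled ctrl 2 equalled the mean of ctrl 1 and ctrl 3, rounded up, in all 32493 genes, and was not counted as a library. *Mir151* was not among the counted genes, so the genotype could not be checked on it. Levels of sex-linked genes moved with the genotype. *Xist*, which is transcribed from the inactive X chromosome, stood at 2889 and 2557 normalized CPM (counts scaled to a common library size) in ctrl and at 787, 849 and 894 in cko, and the Y-linked *Kdm5d* stood at 25.1 and 27.0 in ctrl and at 68.9, 69.2 and 67.6 in cko. The sex of the cells and the genotype cannot be told apart in these libraries.

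Of the 8 genes, *Hes5* and *Heyl* were higher in cko NSCs and *Hes1* was lower, and the other 5 did not pass the test. Calls were made with edgeR's quasi-likelihood test over all 16710 genes, at 0.05 after Benjamini-Hochberg adjustment. The 2 members called higher stand beside 7.86% of all tested genes, and the 1 called lower beside 8.57%. In *Hes5*, *Heyl* and *Rbpj*, 3 of the 8, all cko libraries were above both ctrl libraries, which held for 25.4% of tested genes, and in 1, *Hes1*, all of them were below, which held for 24.3%. The limits of the study asked for a log2 fold change of more than 0.9 in size and p below 0.01 without adjustment. The study used DESeq2, and here its limits were applied to the edgeR fit. *Hes5* and *Heyl* passed on the high side, where 2.39% of genes were, and *Hes1* on the low side, where 4.17% were. *Hes5* was close to the limit of 0.9, at 0.930, and was under it without cko 2 (0.896) or without ctrl 3 (0.899). The log2 fold change of *Hes1* was -1.04, and -0.818 without ctrl 3. The median log2 fold change was 0.19 over the 8 genes and 0.00 over all tested genes.

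**Figure D1:**
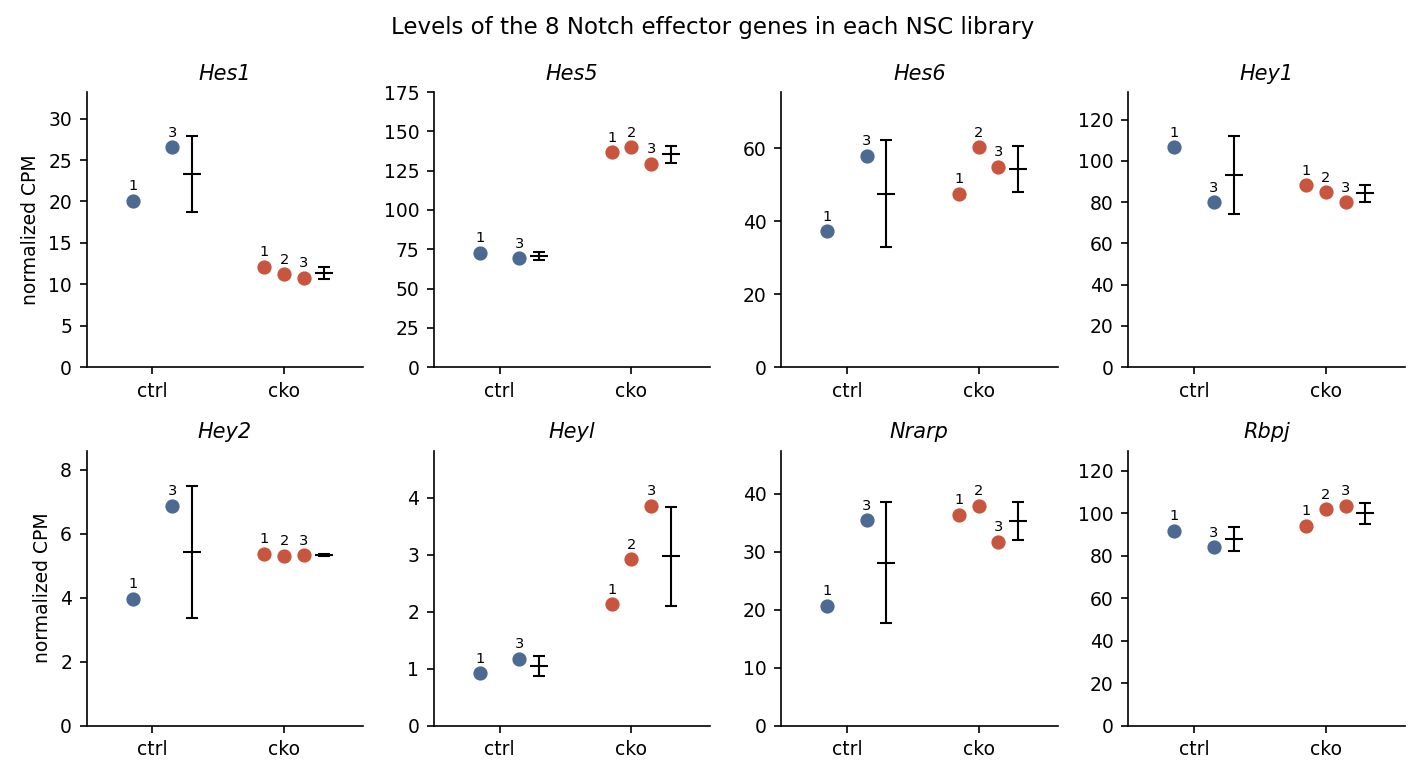
Normalized CPM (y axis, from 0, a separate scale for each gene) of the 8 genes in ctrl libraries 1 and 3 (blue) and cko libraries 1 to 3 (red), with the library number above each point and the mean ± SD to the right of it. *Hes1* was below and *Hes5*, *Heyl* and *Rbpj* were above both ctrl libraries in all 3 cko libraries, while in *Hes6*, *Hey1*, *Hey2* and *Nrarp* the genotypes overlapped.

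*Hes1* (ENSMUSG00000022528, chr16:30064384-30067796 of GRCm38, plus strand) encodes the repressor whose level oscillates in cortical progenitors and which delays neurogenesis. It stood at 20.1 and 26.6 normalized CPM in ctrl 1 and 3 and at 12.1, 11.2 and 10.8 in cko 1, 2 and 3. All 3 cko libraries were low and close together, and the lower ctrl library was still well above the highest of them. The means were 23.3 ± 4.58 (SD, n = 2) in ctrl and 11.4 ± 0.690 (SD, n = 3) in cko NSCs. *Hes1* thus fell by 1.04 on the log2 scale (SE 0.15, 95% interval -1.39 to -0.68), a 2.05-fold lower level, with an adjusted p of 0.00588 in edgeR's quasi-likelihood test. The depth behind these values was 460 and 498 counts in ctrl and 217, 261 and 235 in cko. *Hes1* remained called when any 1 of the 5 libraries was left out, with log2 fold changes between -1.24 and -0.82.

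*Hes5* (ENSMUSG00000048001, chr4:154960923-154962371, plus strand) encodes the other main repressor and is widely used as a readout of canonical Notch activity in NSCs. It stood at 72.8 and 69.2 normalized CPM in ctrl and at 137, 140 and 129 in cko. Libraries of 1 genotype differed little here, by 1.05-fold between the ctrl libraries and by at most 1.08-fold among the cko libraries. The means were 71.0 ± 2.52 (SD, n = 2) and 135 ± 5.44 (SD, n = 3), and *Hes5* rose by 0.93 on the log2 scale (SE 0.08, 95% interval 0.75 to 1.11), 1.91-fold, with an adjusted p of 0.00107 in edgeR's quasi-likelihood test. It was called without any 1 library as well, with log2 fold changes between 0.90 and 0.96. A gene on the opposite strand, *Gm20421*, shares 433 bases of exon with *Hes5* and had at most 2 counts in any library. Whether counting used the strand is not given in the sources used here. These low counts therefore do not show how reads in the shared bases were assigned.

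*Hes1* and *Hes5* therefore moved in opposite directions, and their ratio, which needs no scaling between libraries, separated the genotypes. Neither gene overlapped between the genotypes, so this separation follows from the 2 results above and is no separate evidence for them. There were 3.62 and 2.60 *Hes5* counts for each *Hes1* count in ctrl 1 and 3, and 11.2, 12.5 and 12 in cko 1, 2 and 3. The mean log2 ratio was 1.62 ± 0.34 (SD, n = 2) in ctrl and 3.57 ± 0.08 (SD, n = 3) in cko, a difference of 1.95. A two-sided exact permutation test of 2 against 3 libraries, which counts the smaller tail 2 times, gave p = 0.20. This is the smallest value that this form of the test can give with 10 arrangements. With 2 against 3 libraries it cannot reach 0.05, whether or not the tail is counted 2 times.

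In bulk RNA, fewer cells that express a gene and less RNA of it per cell cannot be told apart, and this holds for every gene described here. Expressed per kilobase of annotated exon, so that genes of different length can be compared, *Hes5* was the most abundant of the 8 genes in both genotypes, at a mean level of 52.1 CPM per kb in ctrl and 99.3 in cko. In ctrl NSCs it was followed by *Hey1* (28.6 CPM per kb), *Hes6* (26.3), *Hes1* (11.5), *Nrarp* (10.9), *Rbpj* (6.89), *Hey2* (1.18) and *Heyl* (0.204). The ctrl libraries of *Hey1* and *Hes6* overlapped, as did those of *Hes1* and *Nrarp*, so neither pair can be ordered beyond its spread. In cko NSCs the order was *Hes5*, *Hes6* (30.0 CPM per kb), *Hey1* (25.8), *Nrarp* (13.7), *Rbpj* (7.84), *Hes1* (5.59), *Hey2* (1.16) and *Heyl* (0.58), with *Hes6* and *Hey1* again overlapping. The place of *Rbpj* depends on the length used, since its 12 annotated transcripts cover 12750 bases of exon but the longest of them is 5485 bases.

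Among the transcripts of the 6 HES and HEY genes, counted per kb, *Hes5* made up 45.4% and 41.6% in ctrl 1 and 3 and 62.2%, 60.7% and 60.5% in cko 1, 2 and 3. Its mean share was 43.5% ± 2.70 (SD, n = 2) in ctrl and 61.1% ± 0.961 (SD, n = 3) in cko, 17.6 percentage points higher. The share of *Hes1* was 8.39% and 10.7% in ctrl and 3.70%, 3.25% and 3.38% in cko, which fell by 6.10 percentage points on average. The same exact permutation test, with the smaller tail counted 2 times, again gave its smallest possible p of 0.20 for each share. The mean share of *Hey1* was 23.9% in ctrl and 15.9% in cko, although its own level did not pass the test, as the share of 1 gene falls when that of another rises.

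**Figure D2:**
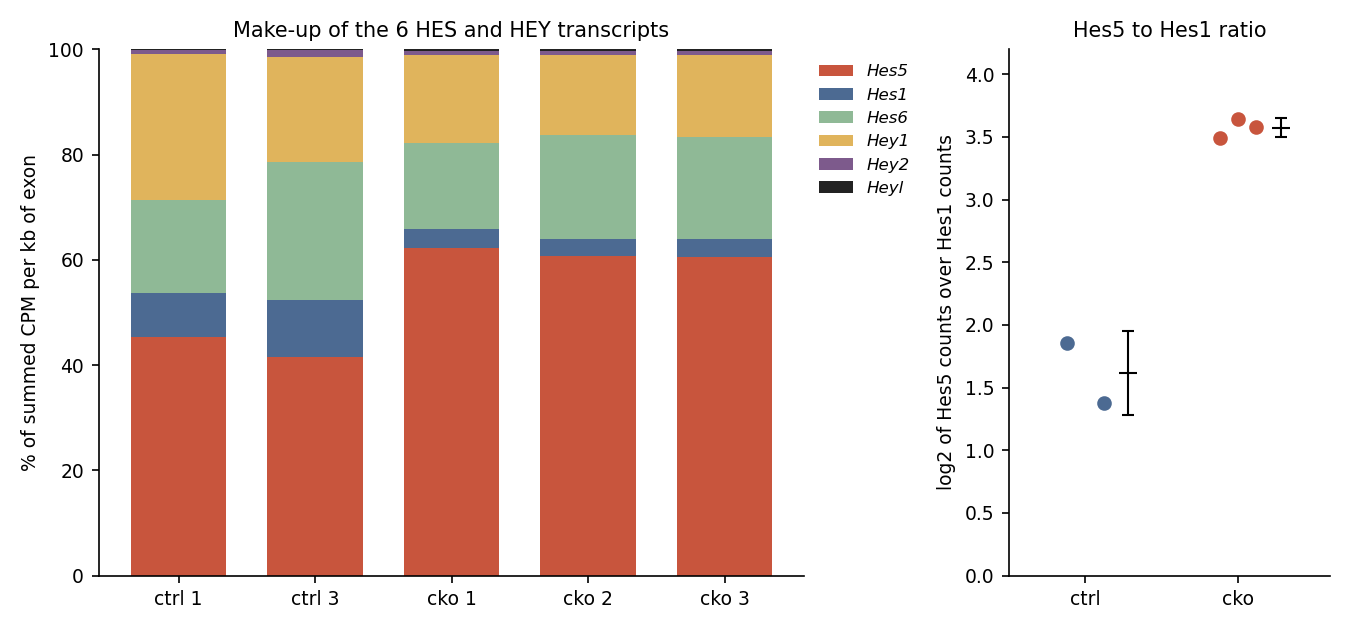
Left, the share of each of the 6 HES and HEY genes in their summed CPM per kb of exon (%, stacked to 100) in each library; right, the log2 ratio of *Hes5* to *Hes1* counts in each library (points) with mean ± SD. *Hes5* took 41.6% to 45.4% of the sum in ctrl and 60.5% to 62.2% in cko, and the cko ratios lay close together above both ctrl ratios.

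*Heyl* (ENSMUSG00000032744, chr4:123233556-123249875, plus strand), the least abundant of the 8 genes, encodes a HEY repressor best known from vascular smooth muscle and also expressed in neural progenitors. It stood at 0.917 and 1.17 normalized CPM in ctrl and at 2.13, 2.92 and 3.86 in cko, from 21 and 22 counts in ctrl and 38, 68 and 84 in cko. All cko libraries lay above both ctrl libraries but spread over 1.82-fold. The means were 1.05 ± 0.181 (SD, n = 2) and 2.97 ± 0.868 (SD, n = 3), a rise of 1.51 on the log2 scale (SE 0.35, 95% interval 0.69 to 2.34), 2.86-fold, with an adjusted p of 0.0287 in edgeR's quasi-likelihood test. The call rested on single libraries, since the adjusted p was 0.10 without cko 2 (log2 fold change 1.52), 0.112 without cko 3 (1.27) and 0.063 without ctrl 1 (1.33). The 6 listed markers of mural cells, in which *Heyl* is also known, summed to 2.13 to 2.71 normalized CPM in ctrl and 1.29 to 1.89 in cko. Each of the 6 had a median under 1 normalized CPM, and the part of mural cells in the level of *Heyl* was not tested. Only 2 of the 6, *Pdgfrb* and *Myh11*, had enough counts to be tested, and neither was called.

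*Hey1* (ENSMUSG00000040289, chr3:8663359-8667256, minus strand) and *Hey2* (ENSMUSG00000019789, chr10:30832359-30842801, minus strand) encode the HEY repressors that pair with HES proteins in the same cells. *Hey1* stood at 107 and 79.9 normalized CPM in ctrl and at 88.1, 84.7 and 79.8 in cko, so that ctrl 1 was high and ctrl 3 lay among the cko libraries. Its log2 fold change was -0.15 (95% interval -0.44 to 0.14, adjusted p = 0.446 in edgeR's quasi-likelihood test). *Hey2* was much less abundant, at 3.97 and 6.88 normalized CPM in ctrl and 5.37, 5.32 and 5.33 in cko. Its cko libraries nearly coincided and lay between the ctrl libraries, with a log2 fold change of -0.02 (95% interval -0.61 to 0.58, adjusted p = 0.972 in edgeR's quasi-likelihood test).

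*Hes6* (ENSMUSG00000067071, chr1:91411483-91414038, minus strand), which encodes the family member that works against HES1 and favours differentiation, stood at 37.2 and 57.9 normalized CPM in ctrl and at 47.6, 60.3 and 54.9 in cko. The groups overlapped, and the log2 fold change was 0.19 (95% interval -0.24 to 0.63, adjusted p = 0.515 in edgeR's quasi-likelihood test). *Nrarp* (ENSMUSG00000078202, chr2:25180758-25183339, plus strand), the target that feeds back on the Notch complex, stood at 20.7 and 35.5 normalized CPM in ctrl and at 36.4, 38.0 and 31.7 in cko. Here ctrl 1 was low and ctrl 3 lay within the cko range, and the log2 fold change was 0.34 (95% interval -0.16 to 0.83, adjusted p = 0.316 in edgeR's quasi-likelihood test). The gene *Gm38287* on the opposite strand shares 2051 bases of exon with *Nrarp* and was not counted separately, and whether counting used the strand is not given in the sources used here.

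For *Hey2*, *Nrarp*, *Hes6* and *Hey1*, which ctrl library is kept decides the direction of their value. The fold between ctrl 1 and ctrl 3 was 1.73 for *Hey2*, 1.71 for *Nrarp*, 1.56 for *Hes6* and 1.33 for *Hey1*, and a larger gap was found in 9.31%, 8.22%, 12.2% and 24.3% of tested genes, in that order. The ctrl libraries of *Hes1* differed about as much as those of *Hey1*, 1.32-fold, with a larger gap in 25.9% of genes, but both lay above all cko libraries. Without ctrl 3, edgeR's quasi-likelihood test called *Nrarp* higher (log2 fold change 0.78, adjusted p = 0.00465), *Hes6* higher (0.55, adjusted p = 0.0199) and *Hey1* lower (-0.34, adjusted p = 0.0265), while *Hey2* was at 0.43 with an adjusted p of 0.21. Without ctrl 1, all 4 log2 fold changes were on the other side of 0 from those without ctrl 3, at -0.02 for *Nrarp*, -0.10 for *Hes6*, 0.06 for *Hey1* and -0.38 for *Hey2*, and none was called. With 1 ctrl library left, the test assumes that it varies as the cko libraries do. *Hes1* and *Hes5* kept their calls and directions in both cases.

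**Figure D3:**
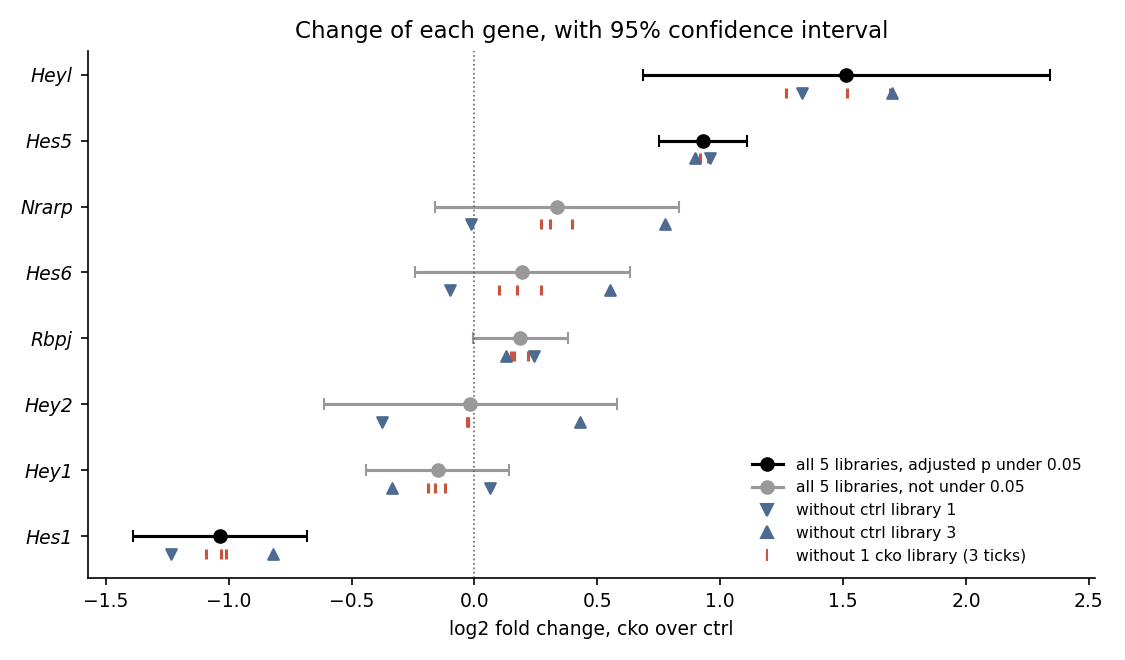
Log2 fold change of cko over ctrl (x axis) for each gene, as circles with 95% confidence intervals (black where the adjusted p was under 0.05, grey where it was not), and below each circle the value without ctrl 1 or ctrl 3 (triangles) and without each cko library (ticks). The triangles of *Nrarp*, *Hes6*, *Hey2* and *Hey1* lie on opposite sides of 0, while those of *Hes1*, *Hes5*, *Heyl* and *Rbpj* do not.

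*Rbpj* (ENSMUSG00000039191, chr5:53466152-53657362, plus strand), the DNA-binding factor that carries the Notch intracellular domain to its targets and represses them without it, stood at 91.7 and 83.9 normalized CPM in ctrl and at 94.2, 102 and 104 in cko. The groups did not overlap, but the lowest cko library was close to the higher ctrl library. The means were 87.8 ± 5.55 (SD, n = 2) and 99.9 ± 5.05 (SD, n = 3), and the log2 fold change of 0.19 (SE 0.08, 95% interval -0.01 to 0.38) had an adjusted p of 0.165 in edgeR's quasi-likelihood test. When the averaged ctrl 2 column was counted as a library, the same test gave an adjusted p of 0.0391 with a log2 fold change of 0.19. The pseudogene *Rbpj-ps3*, a near copy that could take reads of *Rbpj*, had 8 and 22 counts in ctrl and 41, 24 and 27 in cko, beside 1572 to 2380 counts of *Rbpj* itself.

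Promoter windows of the members were searched for the RBPJ motif and for sites of HES and HEY proteins. The 300 bases from 250 before to 50 after the transcription start, from RefSeq on GRCm38.p6, were matched for 5 of the 8 genes: *Hes5*, *Hes6*, *Hey2*, *Nrarp* and *Rbpj*, with a second start for *Hes6* and for *Rbpj*. Entries for *Hes1*, *Hey1* and *Heyl* were not matched. The RBPJ core, TGGGAA or on the other strand TTCCCA, was found in 25.6% of 32851 such windows of all genes, and the longer form GTGGGAA or TTCCCAC, which contains it, in 6.38%. The windows of *Hes5*, which rose, and *Hey2*, whose level was -0.02 on the log2 scale from ctrl, are shown because each held 2 copies of the longer form, 1 on each strand. Copies on both strands were found in 33 of all windows (0.10%), and 2 or more copies on any strand in 84 (0.256%). Capitals mark the core and its reverse complement.
Hes5 promoter (chr4:154960673-154960972, plus strand): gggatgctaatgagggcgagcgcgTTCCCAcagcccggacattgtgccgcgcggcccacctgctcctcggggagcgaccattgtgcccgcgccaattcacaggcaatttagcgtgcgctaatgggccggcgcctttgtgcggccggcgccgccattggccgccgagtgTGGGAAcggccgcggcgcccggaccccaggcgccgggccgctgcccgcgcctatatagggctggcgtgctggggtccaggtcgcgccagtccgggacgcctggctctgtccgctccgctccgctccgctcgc
Hey2 promoter (chr10:30842734-30843033, minus strand): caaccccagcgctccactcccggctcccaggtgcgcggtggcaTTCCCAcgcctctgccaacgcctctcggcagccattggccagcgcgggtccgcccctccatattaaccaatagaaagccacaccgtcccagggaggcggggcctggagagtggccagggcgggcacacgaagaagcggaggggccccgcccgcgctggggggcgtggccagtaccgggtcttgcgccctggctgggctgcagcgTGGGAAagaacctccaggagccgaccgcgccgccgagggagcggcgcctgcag

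In the *Hes5* window the longer copies start 226 and 83 bases before the transcription start, with 136 bases between them, and in the *Hey2* window they start 207 and 4 bases before it, with 196 bases between them. The window of *Nrarp* and both windows of *Hes6* held no core. The windows of *Rbpj*, which overlap each other, held 2 and 1 short cores and no longer one. N boxes, the sites that HES proteins are known to bind (CACNAG or on the other strand CTNGTG), were found in 42.5% of all windows. *Nrarp* and the first *Hes6* window held 2 each, and *Hes5*, *Hey2* and *Rbpj* held none. The class C site that HES and HEY proteins also bind (CACGNG or CNCGTG), which was in 27.5% of all windows, was found in *Nrarp*, as the palindrome CACGTG that matches on both strands, and once in the second *Hes6* window. These are matches of letters and not binding sites.

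The other genes of the pathway were listed by role, 77 genes in 9 lists, of which 72 could be tested. In edgeR's quasi-likelihood test 9 of the 72 were higher in cko (12.5%) and 7 were lower (9.72%), beside 7.86% and 8.57% of all tested genes, and their median log2 fold change was 0.00. Of the 4 receptors, *Notch1* was higher, at 387 and 359 normalized CPM in ctrl and 498, 536 and 537 in cko (log2 fold change 0.49, adjusted p = 0.00867), and *Notch3* was lower, at 298 and 271 in ctrl and 185, 164 and 160 in cko (-0.75, adjusted p = 0.00312). Of the 8 ligands and ligand-like genes, *Dll1*, the ligand that differentiating progenitors present to their neighbours, was higher, at 144 and 117 in ctrl and 208, 208 and 236 in cko (0.73, adjusted p = 0.00673). *Jag1* was higher as well (0.68, adjusted p = 0.029), while *Jag2* (-1.27, adjusted p = 0.0341) and *Dll3*, which inhibits Notch within its own cell, were lower (-0.49, adjusted p = 0.0456). Both directions were called among the receptors and among the ligands, but the calls of *Jag2* and *Dll3* each held in 1 of the 5 fits without a library, *Jag2* without ctrl 1 and *Dll3* without ctrl 3.

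Among the 9 genes for receptor cleavage, *Aph1b* (log2 fold change 0.35, adjusted p = 0.0283) and the sheddase *Adam10* (0.28, adjusted p = 0.0495) were higher and *Psen2* was lower (-0.76, adjusted p = 0.0462) in edgeR's quasi-likelihood test. All 3 calls were lost without any 1 of the cko libraries, and those of *Adam10* and *Psen2* also without ctrl 3 and ctrl 1, respectively, at adjusted p-values of 0.0746 to 0.115 for *Aph1b*, 0.0884 to 0.181 for *Adam10* and 0.0994 to 0.151 for *Psen2*. *Aph1a*, the γ-secretase subunit that the study examined as a miR-151-5p target, stood at 72.1 and 84.5 normalized CPM in ctrl and at 74.9, 77.8 and 69.4 in cko, with a log2 fold change of -0.08 (adjusted p = 0.613), and *Psenen* had 0.19 (adjusted p = 0.186). The study's evidence for this target was prediction by databases, a luciferase reporter, and western blots. These blots showed more APH1A protein in cko NSCs and in the dorsal cortex of adult cko mice. The study also reported more of the Notch intracellular domain in cko NSCs, and a stronger Notch reporter signal where APH1A was overexpressed in embryonic cortex. There APH1A overexpression also resembled knockdown of miR-151-5p in where cells lay. RNA counts do not measure protein. Of 17 modifiers of the receptors and ligands, *Neurl1b*, a ubiquitin ligase that promotes endocytosis of ligands, was higher (0.72, adjusted p = 0.0357) and *Mib2*, another such ligase, was lower (-0.37, adjusted p = 0.025). Of 8 coactivators, *Maml2*, which bridges RBPJ and the Notch intracellular domain to the transcription machinery, was higher (0.49, adjusted p = 0.0109) and the histone acetyltransferase gene *Kat2a* was lower (-0.43, adjusted p = 0.011). Of 14 corepressors, *Hdac1* was higher (0.38, adjusted p = 0.0218) and none was lower.

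Of 6 further bHLH repressor genes related to the HES family, 3 could be tested, and *Bhlhe40* was lower (log2 fold change -0.80, adjusted p = 0.017 in edgeR's quasi-likelihood test). *Hes2*, *Hes3* and *Helt* had at most 11 counts in a library and were not tested. The genes that HES repressors are known to restrain, 7 proneural bHLH and related genes, gave 5 tested genes and no call. *Neurog2* stood at 6.64 and 4.96 normalized CPM in ctrl and 7.72, 7.29 and 7.81 in cko and did not pass (log2 fold change 0.39, adjusted p = 0.203), and *Atoh1* had no count in any library. The 5 tested genes had a median log2 fold change of 0.39. Of the 4 ID genes, whose proteins bind bHLH partners and keep them from DNA, *Id2* was higher (0.65, adjusted p = 0.0152).

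Of these 16 pathway calls, those of *Notch3* and *Dll1* remained without any 1 of the 5 libraries. The other 14 were each lost without at least 1 of them, at adjusted p-values of 0.0525 to 0.181: 8 without cko 1, 14 without cko 2, 13 without cko 3, 4 without ctrl 1 and 2 without ctrl 3. All 16 kept their direction. Values shrank by more than 1.5 times for *Jag2*, to -0.655, and *Bhlhe40*, to -0.524, without ctrl 3, and for *Dll3*, to -0.295, and *Neurl1b*, to 0.459, without ctrl 1.

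**Figure D4:**
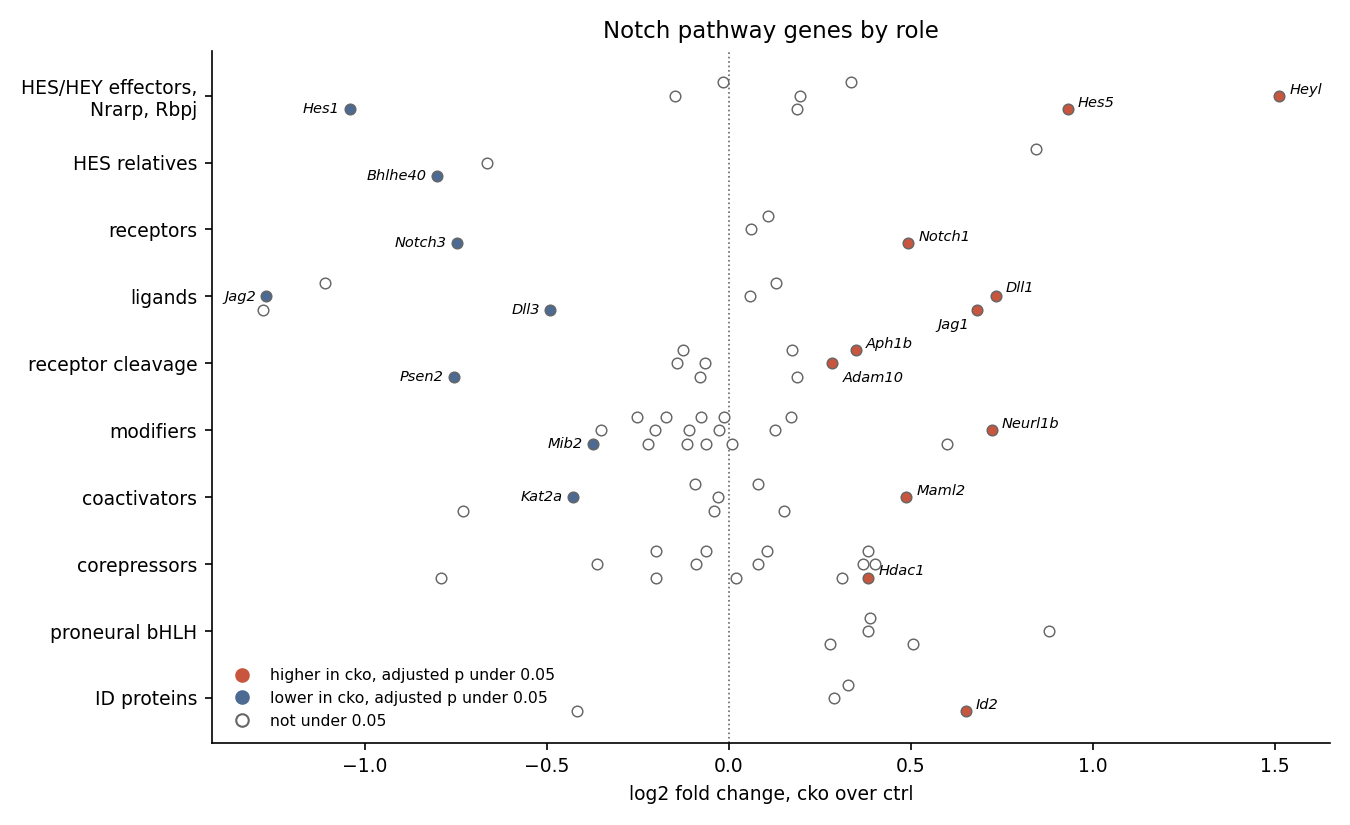
Log2 fold change of cko over ctrl (x axis) of every tested gene of the 8 effectors and of the 9 pathway lists (rows), with genes called higher in red, genes called lower in blue and the others open. Called genes of both directions stand in the rows of the effectors, receptors, ligands, cleavage genes, modifiers and coactivators.

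Genes with a course most like that of *Hes1* and *Hes5* over the 5 libraries were sought among the 10179 tested genes with a mean of at least 10 CPM, by the root mean square difference of centred log2 CPM. Nearest to *Hes1* were *Sema4b* (0.04), *Slc41a1* (0.04) and *Mmp14* (0.05), with log2 fold changes of -0.98, -0.98 and -0.94 beside a median distance of 0.53 over all genes. *Sema4b* encodes a semaphorin and *Mmp14* a membrane-bound matrix metalloproteinase. Nearest to *Hes5* were *Cacnb3* (0.04), a calcium channel subunit gene, *Pcx* (0.05), which encodes pyruvate carboxylase, and *Brinp3* (0.05), with log2 fold changes of 0.90, 0.84 and 0.88 beside a median distance of 0.46. With 5 libraries in 2 genotypes, likeness of this kind is mostly a like difference between the genotypes.

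Cell type markers were read beside the members, since HES and HEY genes differ between neural cell types. Of 8 NSC and radial glia markers, *Nes* and *Prom1* were higher and *Slc1a3* lower in cko, and all 8 were present, with summed levels of 6906 to 7849 normalized CPM in ctrl and 8022 to 8720 in cko. Of 6 astrocyte markers, *S100b*, *Gja1* and *Slc1a2* were lower and none was higher, with sums of 1339 to 2443 in ctrl and 608 to 1136 in cko. *Gfap*, *Aqp4* and *Aldh1l1* were not called, and *Gfap* stood at 1010 and 178 normalized CPM in ctrl 1 and 3. Oligodendrocyte lineage markers divided: *Olig1* and *Olig2* were higher and 3 genes, *Sox10* and *Mbp* among them, were lower. The 8 genes summed to 2655 to 3289 in ctrl and 3211 to 3499 in cko, most of it from *Olig1* and *Olig2*. The fall of *Mbp*, a myelin gene of mature cells, was from 139 and 238 normalized CPM in ctrl to 10.5, 9.30 and 11.8 in cko. *Mog*, another myelin gene, was low in both genotypes and was not called (log2 fold change -0.05), nor were *Pdgfra* and *Cspg4*. Levels of some glial markers therefore moved with the genotype, as *Hes1* and *Hes5* did, while those of others were not called. The part of glial cells in the results above was not tested.

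Of 6 neuron markers, *Dcx* was lower, at 148 and 100 normalized CPM in ctrl and 54.8, 38.5 and 37.4 in cko. The 6 summed to 1088 to 1215 in ctrl and 1160 to 1193 in cko, most of it from *Map2*, which was not called. Of 4 intermediate progenitor markers, *Btg2* and *Gadd45g* were higher, with sums of 148 to 165 and 232 to 245, while *Eomes*, the defining marker, had at most 4 counts in a library. Dorsal telencephalon genes summed to 150 to 187 in ctrl and 216 to 224 in cko, with 1 of 4, *Lhx2*, higher, and *Emx1*, whose locus drives the Cre, had at most 10 counts in a library at the time of collection. The 4 ventral genes summed to 5.90 to 7.52 and 4.64 to 5.87, with no call. Other cell types were scarce: 7 microglia markers summed to at most 0.907 normalized CPM, with *Cx3cr1*, *Tmem119* and *Itgam* at 0 in all libraries, 4 choroid plexus markers to at most 2.03, and 7 endothelial markers to 4.89 to 5.60 in ctrl and 5.74 to 7.22 in cko, with *Cdh5* at 0 in all libraries. The 5 meningeal markers summed to 12.7 to 18.8 in ctrl and 3.97 to 5.47 in cko. Most of this came from 1 of them, *Foxc1*, which was lower. Of the 16 marker calls, 6 were lost without at least 1 library, at adjusted p-values of 0.0519 to 0.199 in edgeR's quasi-likelihood test: *Slc1a3* without cko 2, *Olig1*, *Gja1*, *Slc1a2* and *Gadd45g* without cko 2 or cko 3, and *Olig2* without any 1 of the cko libraries or without ctrl 1, which moved its log2 fold change from 0.38 to 0.243.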

How the data were processed

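NSC RNA-seq was measured in 3 cko and 3 ctrl samples. The authors used FastQC and NGSQC on the reads and HISAT2 against mm10, and deposited raw counts for 32493 genes; the submitters' processing notes name GRCm39. The counter, its annotation and its use of strand are not given in the sources used here. Of the 6 deposited columns, ctrl 2 holds another kind of value than counts, the rounded mean of ctrl 1 and ctrl 3, and was left out of every n.

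The counts were fitted by edgeR 4.0.16 (R 4.3.3): low counts were filtered by genotype, which left 16710 genes, TMM factors ran from 0.990 to 1.007, and cko was compared with ctrl by the quasi-likelihood test with Benjamini-Hochberg adjustment at 0.05. Steps were tested on simulated data. Normalized CPM are TMM-scaled, and levels per kb use all annotated exon bases (GENCODE M21, GRCm38), which named 31829 of the gene IDs; the others held 0.223% to 0.342% of counts. Ratios and shares were compared by exact permutation over libraries (scipy 1.17.1). A floor of 3 counts is 0.129 to 0.168 CPM; floors cover counting error only.

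The 8 genes, the 9 pathway lists and the 12 marker lists were chosen with earlier results of these data known. Named genes are the 8, the 3 nearest to *Hes1* and to *Hes5*, in each pathway list the called genes (at most 4 by smallest p), and *Aph1a* and *Psenen*; *Xist*, *Kdm5d*, *Neurog2*, genes with overlapping or copied sequence and single markers were named after their values were seen. The result was recomputed with each library left out, with all 6 columns, with a block for the replicate number, with DESeq2 1.42.0, with its size factors in edgeR, with genes kept unfiltered or only from 10 counts upward in each library, and at the study's threshold. Same-numbered libraries correlated in their deviations from the group means at 0.14 (number 1) and 0.05 (number 3) across genes, and nothing in the labels pairs them. Some results of the lists are not reported here.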

Additional observations from a re-analysis of the deposited data

How the results depend on the processing

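*Hes1* and *Hes5* kept their direction and their call in all alternatives, at log2 fold changes of -1.24 to -0.82 and 0.90 to 0.96. *Heyl* ranged from 1.27 to 1.70 without single libraries and was called in 2 of those 5 fits and in the 7 others. Without single libraries *Hes6* ranged from -0.10 to 0.55, *Hey1* from -0.34 to 0.065, *Hey2* from -0.38 to 0.43 and *Nrarp* from -0.015 to 0.78, and the number of the 8 genes called higher from 1 to 4 and lower from 1 to 2. *Rbpj* was called with all 6 columns in edgeR (0.19, adjusted p = 0.0391; 0.0391 to 0.426 over its alternatives), where the averaged column adds no spread of its own. *Hey2* turned to 0.00021 with all 6 columns in DESeq2 and to 0.022 with the replicate block. The block, which rests on a shared number only, changed no call of the 8 genes, but the calls of *Jag2*, *Psen2*, *Aph1b*, *Adam10*, *Mib2* and *Hdac1*, 6 of the 16 in the pathway, and that of *Olig2* were lost with it.

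Over all genes, 1314 were higher and 1432 lower. All 6 columns gave 2865 and 2794 in edgeR and 2605 and 2539 in DESeq2, the study's limits gave 399 and 696, and no filter gave 2237 lower. Leaving out single libraries gave 317 to 1812 higher and 416 to 2062 lower. The cause of the other differences was not tested. Depth limits *Heyl* most, at 21 to 84 counts per library, and 2 ctrl libraries leave wide intervals for *Hey2*, *Nrarp* and *Hes6*.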
